A study of Ricinus communis with 18 samples.

Results

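The effect of polyethylene glycol (PEG) on castor roots was estimated over 3 and 7 days together, with the day of sampling held in the model. Castor (Ricinus communis) is an oilseed crop of the spurge family. PEG-6000 is a large polymer that lowers the water potential of a root medium without entering the cells, so that roots meet a water deficit while they stay in solution. Oxidative stress in drought is the subject that the title gives. The comparison used 12 of the 18 libraries, chosen by the treatment and day in their labels and by no measured value. The PEG roots were whole root systems under 15% PEG-6000, with 3 libraries at 3 days and 3 libraries at 7 days. The control roots were whole root systems without PEG-6000, with 3 libraries of each of the same days. The other 6 libraries, from roots taken out of PEG for 4 days (called rehydrated here) and their controls at 11 days, served for a look back at the same genes. No cultivar, plant age or number of plants per library is given in the labels, and it is not stated whether separate plants were used for each library. The p-values therefore measure only how these samples vary, and that variation may be technical.

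A root that meets dry surroundings produces abscisic acid, which is perceived by soluble receptors, blocks a set of protein phosphatases and frees kinases and bZIP factors that switch on protective genes. Reactive oxygen forms at the same time in membranes, plastids, mitochondria and peroxisomes. It is removed by superoxide dismutases, catalases and the ascorbate and glutathione cycles, while class III peroxidases of the cell wall use hydrogen peroxide to build lignin. Roots short of water commonly slow growth, wall building and ion uptake.

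The deposited table listed 21332 genes, and 15714 of them (73.7%) had enough counts in the 12 libraries to be tested. Library totals ran from about 7474890 to 10817500 counts. Levels are given as FPKM, fragment counts corrected for transcript length and library total. A log2 change is PEG over control from edgeR's quasi-likelihood fit on counts scaled by the trimmed mean of M-values (TMM), given ± its standard error. An adjusted p is Benjamini-Hochberg adjusted over all genes tested, and a gene was called at an adjusted p below 0.05. TMM factors were 0.820 to 0.998 in PEG libraries and 1.04 to 1.19 in control libraries, so the ratio of FPKM of a gene is lower than its fold change. Replicates of a group were not alike. On the first principal component (49.9% of the variance), the other PEG libraries lay between 17.2 and 126 and the other control libraries between -100 and -32.3, whereas PEG replicate 2 of 7 days lay at -8.94 and control replicate 2 of 3 days at 5.67. Gene products are those listed in the table, mostly best hits in other species, and reads shared by near-identical copies may have been split between them. In RNA from whole roots, fewer cells of a type and less RNA per cell cannot be told apart.

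Over both days, PEG roots had more transcript of many genes for photosynthesis, protease and amylase inhibition and autophagy. They had less of many genes for xylem walls, sieve element occlusion in the phloem, lignin and the transport of nitrate and metals. In all, 2124 genes (13.5% of those tested) were higher and 1971 (12.5%) lower in PEG roots than in control roots, together 26.1%. Of these, 1234 were at least 2-fold higher and 1139 at least 2-fold lower. The balance of the directions rests on the scaling. With library totals in place of TMM, 1104 genes were higher and 4518 lower (19.6% of calls higher, against 51.9% with TMM), and limma on log2(FPKM + 1) gave 1249 higher and 4550 lower. The median log2 change of all genes tested was -0.09 with TMM, -0.42 with library totals and -0.31 with limma on FPKM, so changes of gene groups are best read against these. Gene length also moved with the change. In the tenth of the genes with the shortest transcripts (median 686 nucleotides) the median log2 change was 0.35, with 388 genes higher and 57 lower. In the tenth with the longest transcripts (median 3860 nucleotides) it was -0.33, with 68 higher and 311 lower. With the trend over length removed, 3652 genes were called, and 3041 of them were among the 4095 in the same direction. Leaving out control replicate 1 of 3 days left 2539 genes called, leaving out PEG replicate 3 of 3 days 2491, and leaving out PEG replicate 1 of 7 days 2658.

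The number of genes called differed between the days and depended on the fit. In the same 12 libraries, 1475 genes were called higher (9.39%) and 1485 lower (9.45%) at 3 days, and 90 higher (0.573%) and 41 lower (0.261%) at 7 days. Together these were 18.8% of the tested genes at 3 days and 0.834% at 7 days. The 7-day count of 131 was 1272 with DESeq2 and 1 without control replicate 2 of 7 days, and the 3-day count of 2960 was 1358 without control replicate 1 of 3 days. Every gene called over both days had a log2 change of the same sign on each day, which a call on their average largely fixes. Of all 15714 tested genes, 5233 were above 0 on both days and 6459 below 0 on both. The 2124 higher genes had a median log2 change of 1.24 at 3 days and 0.95 at 7 days, and 68.7% of them moved further at 3 days. The 1971 lower genes had medians of -1.31 and -0.86, and 74.2% of them moved further at 3 days. Of the higher genes, 60 were also called on each day taken singly, 1143 at 3 days alone, 29 at 7 days alone and 892 on neither day. Of the lower genes, 26 were called on both days, 1057 at 3 days alone, 13 at 7 days alone and 875 on neither. Another 677 genes were called at 3 or 7 days but not over both.

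**Figure D1:**
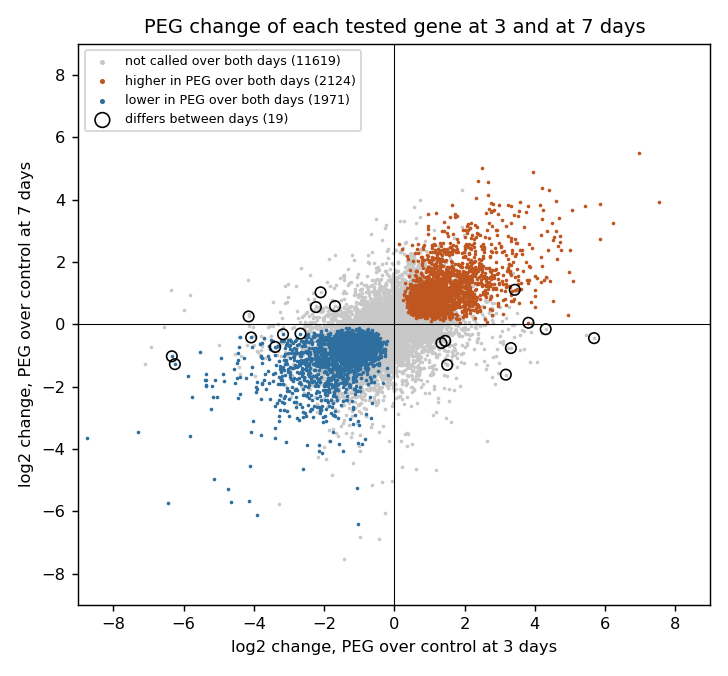
Log2 change of each tested gene at 3 days (horizontal axis) and at 7 days (vertical axis), PEG over control, from edgeR. Coloured points are the 2124 genes called higher and the 1971 called lower over both days. They lie at the upper right and lower left, a placement that a call on the average of the days largely fixes. The genes marked for the interaction lie off the diagonal.

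The most raised named transcript, ncbi_8276905, is listed as alpha-amylase/subtilisin inhibitor-like. Its relatives in cereal grain block enzymes that digest starch and protein. Its lowest, median and highest FPKM were 8.93, 47.5 and 85.6 in PEG roots, against 0, 0.46 and 1.74 in control roots (log2 change 6.29 ± 0.78, adjusted p = 0.00113, edgeR). The 6 PEG libraries all lay above the 6 control libraries. A basic 7S globulin-like gene (ncbi_8272065), named after a soybean seed protein, was far more abundant, with 272, 812 and 2017 FPKM in PEG roots, against 30.3, 41.5 and 194 in control roots (3.87 ± 0.56, adjusted p = 0.00198). A zinc finger family gene (ncbi_8269145) had 16.2, 30.9 and 188 FPKM in PEG roots and 0.23, 1.33 and 4.71 FPKM in control roots (4.85 ± 0.83). PEG replicate 2 of 3 days alone gave the 188, and the other PEG libraries were at or below 57.2. Among the other 12 largest increases were genes for regulators and defence proteins. The kinase CIPK3 (ncbi_8284058), which acts with calcium sensors of the CBL family, had 4.53, 12.6 and 43.4 FPKM in PEG roots, against 0, 0.28 and 4.38 in control roots (3.69 ± 0.76). Chitinase 3 (ncbi_8282608) had 25.2, 100.03 and 202 FPKM in PEG roots, against 1.56, 3.63 and 47.8 in control roots (3.75 ± 0.75). In chitinase 3 the ranges met, since control replicate 2 of 3 days was above the lowest PEG library. A secoisolariciresinol dehydrogenase-like gene (ncbi_8286003), of an enzyme of lignan synthesis, rose by 4.31 ± 0.53, a secretory carrier-associated membrane protein-like gene (ncbi_8281740) by 4.04 ± 0.47 and a cell division cycle protein-like gene (XLOC_016266) by 3.80 ± 0.44, all called on both days. A non-specific lipid-transfer protein-like gene (XLOC_014486, 4.29 ± 0.77) and a PLANT CADMIUM RESISTANCE 9-like gene (ncbi_8269711, 3.68 ± 0.49) were called over both days and at 3 days.

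The 12 largest decreases held 3 WAT1-related genes, whose best studied Arabidopsis relative exports auxin from the vacuole, 3 nicotianamine synthase-like genes and a nitrate transporter. WAT1-related At5g07050 (ncbi_8277199) had 0.13, 0.45 and 2.78 FPKM in PEG roots, against 6.6, 8.57 and 21.1 in control roots (-3.69 ± 0.56, adjusted p = 0.00247, edgeR). The glucose-6-phosphate/phosphate translocator 2 (ncbi_8284234), which carries sugar phosphate into plastids, had 0.83, 2 and 35.3 FPKM in PEG roots, against 31, 66.6 and 115 in control roots (-3.66 ± 0.75). In the first gene the libraries did not overlap. In the translocator, PEG replicate 2 of 7 days, with 35.3 FPKM, was above the lowest control library, and the other PEG libraries were at or below 4.96. The other WAT1-related genes fell by 3.66 ± 0.70 (ncbi_8262017) and 3.51 ± 0.70 (ncbi_107262227), and the dioxygenase AOP1 (ncbi_8271358), whose Arabidopsis relatives modify glucosinolates, by 3.30 ± 0.93. Each of the 12 decreases was called at 3 days and none at 7 days. PEG replicate 2 of 7 days was the highest of the 6 PEG libraries in 8 of them.

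**Figure D2:**
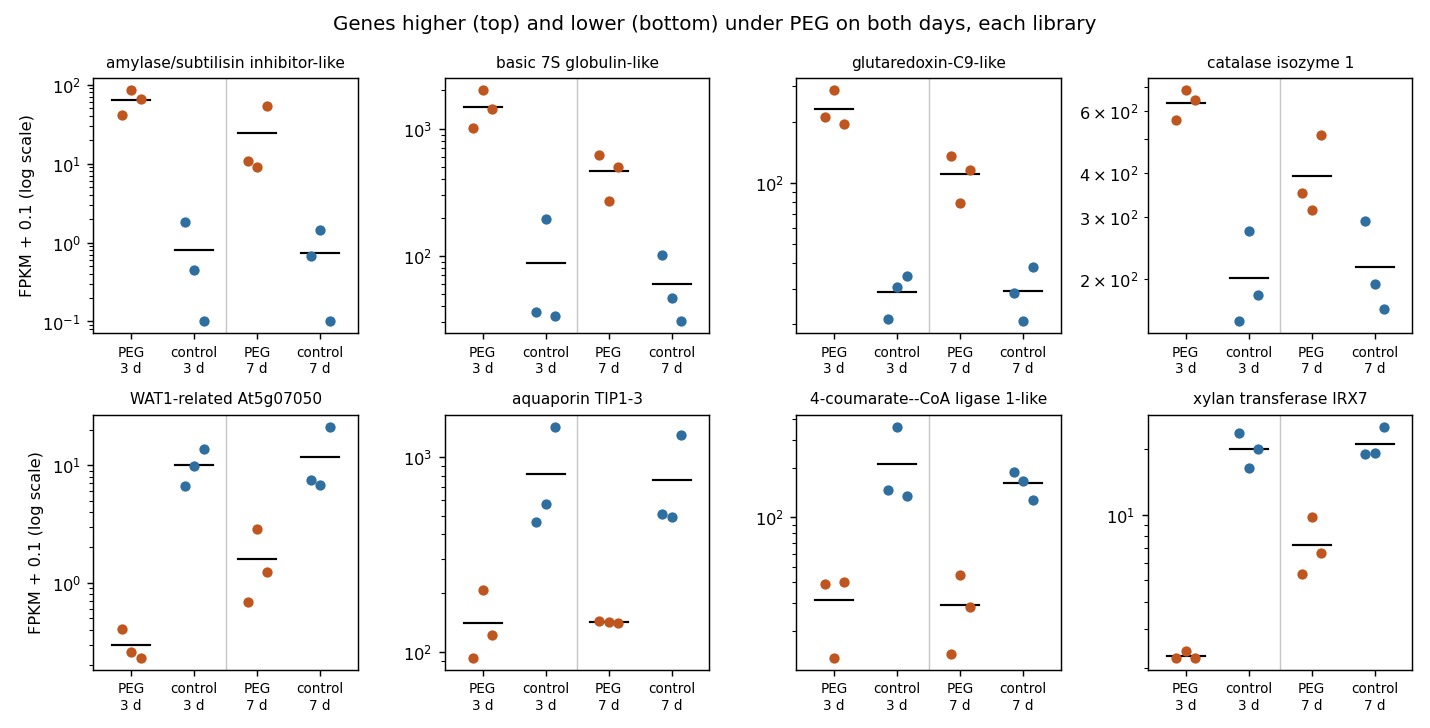
FPKM plus 0.1 on a log axis for 8 genes in each library, with PEG left of control at 3 and at 7 days and black lines for group means. The top row (inhibitor-like ncbi_8276905, 7S globulin-like ncbi_8272065, glutaredoxin-C9-like ncbi_8269112, catalase 1 ncbi_8273613) lies higher in PEG roots on both days, and the bottom row (WAT1-related ncbi_8277199, TIP1-3 ncbi_8275924, 4CL1-like ncbi_8280301, IRX7 ncbi_8275278) lies lower.

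Enzymes that remove reactive oxygen had more members higher than lower. Of 29 tested, 11 were called higher (37.9%) and 4 lower (13.8%), against 13.5% and 12.5% over all genes. The median log2 change was 0.37 against -0.09 for all genes. With library totals the median was 0.04, against -0.42 over all genes, and with limma on FPKM it was -0.04, against -0.31. Catalase isozyme 1 (ncbi_8273613), which splits hydrogen peroxide in peroxisomes, had 314, 538 and 688 FPKM in PEG roots, against 152, 187 and 292 in control roots (1.58 ± 0.26, adjusted p = 0.00302, edgeR). Its PEG and control libraries did not overlap. Catalase isozyme 2 (ncbi_107261240) went the other way, with 4.6, 17.5 and 38.7 FPKM in PEG roots and 28.5, 70.2 and 131 FPKM in control roots (-1.74 ± 0.44, adjusted p = 0.016). Within each day its libraries did not overlap, which was a condition for naming a gene by rule. The 1-Cys peroxiredoxin (ncbi_8262608), known from dormant seeds, had 4.18, 15.9 and 37 FPKM in PEG roots, against 0.26, 2.75 and 4.2 in control roots (3.28 ± 0.64, adjusted p = 0.0057). The lowest PEG library and the highest control library met. Its log2 change was 3.31 at 3 days and 3.25 at 7 days, of which the first was called. A monodehydroascorbate reductase-like gene (ncbi_8258892), which renews ascorbate, fell to 53.6, 83.5 and 91.9 FPKM in PEG roots, against 142, 150 and 206 in control roots (-0.69 ± 0.16, adjusted p = 0.011). The chloroplast Cu-Zn superoxide dismutase (ncbi_8275247), named after its values were seen, had 222, 306 and 416 FPKM in PEG roots and 153, 164 and 268 FPKM in control roots (1.04 ± 0.21, adjusted p = 0.00698). Its ranges overlapped. Without control replicate 1 of 3 days, 6 of the list were called higher, as many as with library totals.

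Thioredoxins and glutaredoxins, small proteins that reduce disulfides, showed 12 of 52 members higher (23.1%) and 5 lower (9.62%), with a median of 0.50. With library totals the count was 6 higher and 10 lower, with a median of 0.16. Over all genes that scaling gave 19.6% of calls higher and a median of -0.42. The 2 glutaredoxin-C9 genes, of a plant class that binds TGA factors in Arabidopsis, were among the clearest. The C9-like gene (ncbi_8269112) had 78.9, 165 and 286 FPKM in PEG roots, against 20.6, 29.4 and 38.2 in control roots (2.80 ± 0.30, adjusted p = 0.000625), and was called on both days. Glutaredoxin-C9 (ncbi_8288062) had 161, 315 and 839 FPKM in PEG roots, against 55.3, 93.2 and 137 in control roots (2.15 ± 0.37, adjusted p = 0.00339). In both genes the 6 PEG libraries stood above the 6 control libraries, with the 3-day PEG roots highest. A thioredoxin (ncbi_8262072) fell by 1.80 ± 0.37. Of 34 glutathione S-transferases, which join glutathione to reactive compounds, 9 were higher (26.5%) and 5 lower (14.7%), against 13.5% and 12.5% over all genes. At 3 days their median was 0.52, with 13 called higher and 1 lower. At 7 days it was -0.05, with 0 called. Over both days the median was 0.24, and it became -0.09 with library totals, -0.08 with limma on FPKM and -0.03 with the length trend removed. Without control replicate 1 of 3 days 5 were higher, and without PEG replicate 3 of 3 days 2 were lower. The parC gene with most transcript (ncbi_8277756) had 459, 834 and 1871 FPKM in PEG roots, against 162, 299 and 547 in control roots (1.97 ± 0.39), and a U7-like gene (ncbi_8279820) had 2.27, 15.4 and 35 FPKM, against 41.7, 70 and 98 (-1.67 ± 0.43).

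Class III peroxidases of the cell wall had more members lower than higher, with 2 of 51 higher, 8 lower and a median of -0.80. Peroxidase 27-like (ncbi_8270262) had 1, 7.86 and 18.9 FPKM in PEG roots, against 21.6, 54.2 and 95.7 in control roots (-2.34 ± 0.65, adjusted p = 0.0222, edgeR), without overlap. Peroxidase 10-like (ncbi_8283272) had 2.04, 14.3 and 52.5 FPKM in PEG roots, against 30.1, 77.2 and 96.4 in control roots (-2.20 ± 0.52). The 8 lower genes are 15.7% of those tested, near the 12.5% over all genes.

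Of 27 tested genes of abscisic acid signalling, 6 were higher (22.2%, against 13.5% over all genes) and 0 lower. With library totals 3 were higher and 5 lower, and the median, 0.26 with TMM, was -0.06. Over all genes library totals gave 19.6% of calls higher and a median of -0.42. A protein phosphatase 2C (56-like, ncbi_8268292), of the family that the hormone blocks, had 19.6, 34 and 51.2 FPKM in PEG roots, against 7.58, 12.8 and 22.3 in control roots (1.60 ± 0.30, adjusted p = 0.00443, edgeR). The bZIP factor ABI5-like 7 (ncbi_8286238) had 13.8, 20.8 and 37.3 FPKM in PEG roots, against 7.19, 9.89 and 17.6 in control roots (1.33 ± 0.25, adjusted p = 0.0048). Both overlapped across days, and separation within each day was a condition for naming them. Among 15 tested genes for making and breaking down the hormone, 3 (20%) passed the test as higher and 1 (6.67%) as lower. The shares over all genes were 13.5% and 12.5%. These 3 and 1 are named after their values were seen. The higher ones were a zeaxanthin epoxidase (ncbi_8267948, 2.64 ± 0.60), an early enzyme of the pathway at no more than 4 FPKM in PEG roots, a 9-cis-epoxycarotenoid dioxygenase (ncbi_8264093, 1.24 ± 0.33), which makes the committed cleavage, and an 8'-hydroxylase (ncbi_8278867, 1.70 ± 0.54), which inactivates it. The lower one was a molybdenum cofactor sulfurase (ncbi_8258317, -1.32 ± 0.39), which activates the last oxidase.

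Genes for protective sugars and chaperones split. Of 23 genes for raffinose, galactinol and trehalose, 6 were higher (26.1%) and 3 lower (13.0%), against 13.5% and 12.5% over all genes. With library totals 2 were higher and 4 lower, a scaling that gave 19.6% of calls higher over all genes. Without control replicate 1 of 3 days, 3 of these sugar genes were higher. A trehalose-phosphate synthase (ncbi_8269054) fell to 2.26, 4.36 and 7.56 FPKM in PEG roots, against 12.7, 15.9 and 18.9 in control roots (-1.54 ± 0.23, adjusted p = 0.00234, edgeR), and another (ncbi_8289077) fell by 1.11 ± 0.35. A galactinol synthase (ncbi_8282589), named after its values were seen, had 14.7, 67.9 and 121 FPKM in PEG roots, against 11.2, 24.7 and 50.1 in control roots (1.60 ± 0.48, adjusted p = 0.0297). Of 51 heat shock proteins and factors 7 were higher and 6 lower, close to the share over all genes. The median of 0.17 turned to -0.17 with library totals, against -0.42 over all genes. The mitochondrial 23.6 kDa heat shock gene (ncbi_8266073) had 25.4, 96.5 and 353 FPKM in PEG roots and 3.38, 11.7 and 40.5 FPKM in control roots (3.04 ± 0.66). Heat stress factor A-4a (ncbi_8275192) rose by 1.23 ± 0.21, and heat shock protein 83 (ncbi_8273552), a cytosolic HSP90, fell by 0.86 ± 0.18. Late embryogenesis abundant proteins and dehydrins protect dry cells, mostly in seeds. Of 25 listed, 3 had enough counts to be tested, and 1 was called higher (ncbi_8283246), with at most 2.07 FPKM in PEG roots. The abundant dehydrin (ncbi_8267873), named after its values were seen, had 137, 281 and 678 FPKM in PEG roots, against 359, 501 and 621 in control roots (-0.41 ± 0.31, adjusted p = 0.331), without a call. Of 3 tested genes of proline metabolism, 1 was higher and 1 lower. The median of 17 genes of low oxygen and fermentation was 0.87 at 3 days and 0.12 at 7 days, where 0 were called. Over both days 3 were higher (17.6%) and 1 lower (5.88%) with TMM, and 0 were higher and 4 lower with library totals. Without PEG replicate 3 of 3 days 0 were higher, and without control replicate 1 of 3 days 0 were lower. All 10 listed protease and amylase inhibitors were tested, and 6 were higher (60%) and 0 lower (median 1.22, and 4 higher with library totals).

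Transcription factors were counted by family. Of 37 NAC factors, known for roles in drought and senescence, 12 were higher (32.4%, against 13.5% over all genes) and 2 lower. Without control replicate 1 of 3 days, 4 were higher. With library totals, 5 were higher and 6 lower, a scaling that gave 19.6% of calls higher over all genes. NAC72 (ncbi_8263571), an Arabidopsis drought regulator, had 40.3, 83.5 and 236 FPKM in PEG roots, against 5.74, 12.1 and 43.1 in control roots (2.69 ± 0.53, adjusted p = 0.00583, edgeR). Control replicate 2 of 3 days was the library that met the PEG range. A NAC86-like gene (ncbi_8284623), of the type needed for sieve element maturation in Arabidopsis, fell by 1.71 ± 0.42. Of 66 AP2/ERF factors 12 were higher (18.2%) and 7 lower (10.6%), against 13.5% and 12.5% over all genes. Their median was 0.32 with TMM and -0.01 with library totals, against -0.09 and -0.42 over all genes. ERF098 (ncbi_8259178) had 2.75, 6.21 and 22 FPKM in PEG roots, against 0.37, 0.655 and 1.19 in control roots (3.78 ± 0.42, adjusted p = 0.000846), and was called on both days. A factor of the AP2 domain family (ncbi_8283177) had 83.7, 246 and 924 FPKM in PEG roots and 6.34, 26.2 and 138 FPKM in control roots (3.21 ± 0.72). Both stood highest in 3-day PEG roots. Of 52 WRKY factors 8 were higher (15.4%, near the share over all genes) and 2 lower, and 2 were higher without control replicate 1 of 3 days. The named WRKY genes were lower ones, WRKY44 (ncbi_8283841, -1.40 ± 0.24) and WRKY61 (ncbi_8277378, -0.75 ± 0.24). Of 62 bHLH factors, a family with roles in root hairs and iron uptake, 3 were higher (4.84%) and 12 lower (19.4%). Without control replicate 1 of 3 days, 7 were lower. The bHLH74 gene (ncbi_8265249) fell to 1.56, 2.1 and 6.54 FPKM in PEG roots, against 8.6, 10.1 and 11.6 in control roots (-1.49 ± 0.29). Of 49 MYB factors 8 were higher (16.3%) and 5 lower, with 4 higher without control replicate 1 of 3 days, among them Myb4-like (ncbi_8280855), whose Arabidopsis relative represses phenylpropanoid genes, with 6.8, 17.8 and 42.8 FPKM in PEG roots and 1.1, 2.72 and 7.88 FPKM in control roots (3.06 ± 0.42, adjusted p = 0.0018). Of 34 bZIP and HD-Zip factors 5 were higher (14.7%) and 3 lower, and 2 higher and 1 lower without control replicate 1 of 3 days, with ATHB-13 (ncbi_8286990) falling by 1.95 ± 0.47.

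Photosynthesis transcripts were the list with the highest share of members called higher. Light-harvesting proteins are encoded in the nucleus and photosystem subunits partly in the plastid, and plastocyanin carries electrons between the photosystems. Of 59 listed genes 45 were tested, and 34 were higher (75.6%, against 13.5% over all genes) and 0 lower, with a median log2 change of 1.59. At 3 days 9 were called higher (median 0.95), and at 7 days 20 were called higher (median 2.22), whereas the genes called higher over both days had the larger median at 3 days. Without control replicate 2 of 7 days, 0 genes of any kind were called higher at 7 days, so none of the 20 stayed called. The plastid-encoded D2 and D1 proteins (ncbi_11542303 and ncbi_11542408), named after their values were seen, had log2 changes of 1.25 and 0.98 and were not called. Library totals left 27 higher, limma on FPKM 31, removal of the length trend 27, and the fit without control replicate 2 of 3 days and PEG replicate 2 of 7 days 31. Of the 59 genes, 7 were at 0 FPKM in all 12 libraries. Plastocyanin (ncbi_8267840) had 203, 310 and 378 FPKM in PEG roots, against 20.7, 36.4 and 107 in control roots (2.98 ± 0.38, adjusted p = 0.00128, edgeR). It was called on both days, and no control library reached a PEG library. The photosystem II 5 kDa protein (ncbi_8274445) had 1.68, 5.38 and 8.41 FPKM in PEG roots and 0.81, 1.31 and 1.58 FPKM in control roots (2.28 ± 0.32, adjusted p = 0.00186). Other members were named after their values were seen. The light-harvesting LHCII gene (ncbi_8264152) had the most transcript of these, 224, 892 and 1146 FPKM in PEG roots, against 42.6, 191 and 477 in control roots (2.40 ± 0.56, adjusted p = 0.011). Its ranges overlapped, while those of photosystem I subunit II (ncbi_8271085) did not, with 35.8, 58.7 and 95.5 FPKM in PEG roots and 20.3, 22.8 and 32.1 FPKM in control roots (1.59 ± 0.23, adjusted p = 0.00198). The Rubisco small chain (ncbi_8271820), the small subunit of the carbon-fixing enzyme, had 20.9, 55 and 88.2 FPKM in PEG roots, against 8.66, 24 and 38.5 in control roots (1.47 ± 0.42, adjusted p = 0.024).

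Summed over the 59 genes, photosynthesis transcripts took 1396 to 2365 FPKM in PEG roots at 3 days and 502 to 1225 FPKM in control roots of that day. At 7 days they took 2916 to 3714 FPKM in PEG roots and 424 to 852 FPKM in control roots. The groups did not overlap on either day. The part of green tissue in this difference was not tested. Chlorophyll and tetrapyrrole enzymes gave 8 higher (34.8%) and 1 lower (4.35%) of 23, against 13.5% and 12.5% over all genes. With library totals 3 were higher and 1 lower. Coproporphyrinogen-III oxidase (ncbi_8277944), a step shared by heme and chlorophyll, had 419, 984 and 1449 FPKM in PEG roots, against 67.7, 204 and 441 in control roots (2.60 ± 0.44, adjusted p = 0.00342), with the highest values in 3-day PEG roots. The magnesium chelatase subunit ChlH (ncbi_8286305), which commits the pathway to chlorophyll and is named after its values were seen, had 2.98 to 9.33 FPKM in 3-day PEG roots and 2.57 to 6.59 FPKM in controls of that day. It had 14.5 to 23.7 FPKM in 7-day PEG roots and 1.4 to 3.25 FPKM in controls of that day (2.01 ± 0.47 over both days, adjusted p = 0.0113).

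Autophagy genes, which serve the recycling of cell contents, were higher in 9 of 24 (37.5%, against 13.5% over all genes) and lower in 0. Their median was 0.56, and 5 were higher and 1 lower with library totals. ATG8i-like (ncbi_8265901), of the family that coats the autophagosome, had 22.4, 29.4 and 37.1 FPKM in PEG roots, against 10.2, 14.9 and 20.6 in control roots (1.31 ± 0.23, adjusted p = 0.00359, edgeR). The PEG libraries all exceeded the control libraries. A gene listed as autophagy-related 2 (ncbi_8271821) had 1264, 1902 and 2501 FPKM in PEG roots, against 239, 747 and 1361 in control roots (1.72 ± 0.37, adjusted p = 0.00817).

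More nutrient transporters were lower than higher. Of 55 transporters for nitrate, ammonium, phosphate and sulfate, 6 were higher and 16 lower (29.1% lower, against 12.5% over all genes), with a median of -0.76. NRT2.1-like genes, the high-affinity nitrate carriers of the root surface, were among the most changed. The more abundant one (ncbi_8275206) had 5.92, 81.7 and 272 FPKM in PEG roots, against 377, 516 and 706 in control roots (-2.70 ± 0.68, adjusted p = 0.0151, edgeR). The other (ncbi_8275209) had 0.17, 8.88 and 28.3 FPKM in PEG roots, against 25.8, 58.7 and 84.6 in control roots (-3.34 ± 0.88, adjusted p = 0.0183). In both the 3-day PEG roots were far lower than the 7-day PEG roots. NRT1/PTR family 2.11 (ncbi_8276017), whose Arabidopsis relative carries glucosinolates as well as nitrate, had 1.01, 13.1 and 36.4 FPKM in PEG roots, against 75, 112 and 142 in control roots (-2.87 ± 0.57, adjusted p = 0.00583). The low affinity sulfate transporter 3 (ncbi_8265600), picked after its values were seen, had at most 0.2 FPKM in PEG roots and at least 1.02 FPKM in control roots (-3.20 ± 0.34, adjusted p = 0.000625), and was called on both days.

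Genes of metal uptake had 4 of 48 members higher (8.33%) and 16 lower (33.3%), against 13.5% and 12.5% over all genes. Their median was -0.54, and 8 were lower without PEG replicate 3 of 3 days. Nicotianamine, made by nicotianamine synthase, chelates iron and other metals for long-distance transport. The 3 named synthase genes were at 0 to 1.12 FPKM in 3-day PEG roots and at 1.05 to 18 FPKM in 7-day PEG roots. The best separated one (ncbi_8258799) had 0, 4.03 and 11.3 FPKM in PEG roots, against 26.5, 31 and 44 in control roots (-3.26 ± 0.67, adjusted p = 0.00698, edgeR). The others (ncbi_8261713 and ncbi_8279286) fell by 3.25 ± 0.76 and 3.13 ± 0.83. The 3 genes carry the same product name, and whether they share reads was not tested. Of 34 genes of potassium and sodium transport, 0 were higher and 4 lower (11.8%, near the 12.5% over all genes). Potassium transporter 5-like (ncbi_8285713), of the high-affinity HAK type, had 1.98, 10.4 and 24.7 FPKM in PEG roots, against 41.1, 69 and 84.9 in control roots (-2.32 ± 0.41, adjusted p = 0.00385), without overlap.

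Aquaporins, the membrane channels for water, had 3 of 24 higher (12.5%) and 5 lower (20.8%), against 13.5% and 12.5% over all genes. Without PEG replicate 2 of 3 days, 1 was lower. TIP1-3 (ncbi_8275924), of the vacuolar type, had log2 changes of -2.14 at 3 days and -2.18 at 7 days, of which the first was called. It had 92.6, 141 and 206 FPKM in PEG roots, against 464, 538 and 1428 in control roots (-2.16 ± 0.35, adjusted p = 0.00302, edgeR). TIP1-2-like (ncbi_8278126) fell by 1.30 ± 0.37. The plasma membrane channel PIP1-3 (ncbi_8287390), named after its values were seen, had 950, 1423 and 1589 FPKM in PEG roots and 767, 918 and 1218 FPKM in control roots (0.83 ± 0.19, adjusted p = 0.0103), with overlapping ranges.

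Cell wall genes were counted by the polymer they act on. Of 63 tested pectin-modifying enzymes 3 were higher and 11 lower (17.5% lower, against 12.5% over all genes, median -1.09), and without PEG replicate 3 of 3 days 3 were lower. The pectinesterase-like gene (ncbi_107260759), of enzymes that remove methyl groups from pectin, had 0, 0.53 and 8.54 FPKM in PEG roots, against 1.77, 18.8 and 30.8 in control roots (-3.33 ± 0.95, adjusted p = 0.0248, edgeR). Expansins, which loosen walls during growth, and xyloglucan enzymes had 6 of 38 members higher and 6 lower. Each count is 15.8%, near the 13.5% higher and 12.5% lower over all genes. Of this list 3 were higher without control replicate 1 of 3 days and 2 lower without PEG replicate 3 of 3 days. Expansin-A8 (ncbi_8259547) had 0.09, 5.71 and 78.4 FPKM in PEG roots, against 45.8, 161 and 204 in control roots (-3.39 ± 1.00, adjusted p = 0.028). Its 7-day PEG libraries overlapped the 3-day controls, and separation within each day was a condition for naming it. A xyloglucan endotransglucosylase/hydrolase (ncbi_8278518) rose to 40.9, 74.3 and 128 FPKM in PEG roots, against 16.1, 22.4 and 32.7 in control roots (1.98 ± 0.31, adjusted p = 0.00247).

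Lignin was represented by 69 tested phenylpropanoid and lignin enzymes, of which 7 were higher (10.1%) and 17 lower (24.6%), with a median of -0.80. The 4-coumarate--CoA ligase 1-like gene (ncbi_8280301), an entry step to monolignols, had 13.6, 33.7 and 44.5 FPKM in PEG roots, against 128, 157 and 360 in control roots (-2.32 ± 0.36, adjusted p = 0.00247, edgeR). Cinnamoyl-CoA reductase 1 (ncbi_8289802), the first step specific to monolignols, had 0.28, 1.04 and 3.1 FPKM in PEG roots, against 4.6, 8.55 and 10.8 in control roots (-2.21 ± 0.43, adjusted p = 0.00519). Neither gene overlapped between the treatments. A probable cinnamyl alcohol dehydrogenase (ncbi_8285594) went up, to 145, 431 and 678 FPKM in PEG roots, against 31.4, 41.6 and 246 in control roots (2.55 ± 0.54, adjusted p = 0.00757). A dirigent protein 22-like gene (ncbi_8264683), of proteins that guide lignan coupling, rose by 2.63 ± 0.47. In the barrier lists, 3 of 34 genes for Casparian strip and suberin were higher (8.82%) and 5 lower (14.7%), against 13.5% and 12.5% over all genes. The higher ones were all CASP-like genes, and the lower ones were CASP-like and feruloyl transferase genes. The listed Casparian strip membrane protein gene had too few counts to be tested. CASP-like 1F2 (ncbi_8275516) rose by 3.61 ± 0.64, and a CASP-like gene (ncbi_8271450) fell to 0.26, 1.54 and 3.29 FPKM in PEG roots, against 7.31, 11.7 and 15.4 in control roots (-2.64 ± 0.50, adjusted p = 0.00488).

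Genes of vascular tissue had large shares of lower members. Of 27 tested genes for the secondary walls of xylem, 1 was higher and 12 lower (44.4%, median -1.53), and the lower count ranged from 6 (without control replicate 2 of 7 days) to 19 when single libraries were left out. IRX7 (ncbi_8275278), a glycosyltransferase of xylan synthesis, had 2.11, 3.77 and 9.66 FPKM in PEG roots, against 16.3, 19.4 and 25.1 in control roots (-2.02 ± 0.27, adjusted p = 0.00163, edgeR), and was called on both days. Fasciclin-like arabinogalactan protein 11 (ncbi_8284540), a wall protein of fibres and vessels, had 0, 1.33 and 5.26 FPKM in PEG roots, against 5.27, 9.71 and 32.8 in control roots (-2.46 ± 0.82, adjusted p = 0.0426). Of 14 phloem genes 1 was higher and 8 lower (57.1%, median -1.38). A sieve element occlusion gene (ncbi_8285465), of proteins that plug injured sieve tubes, had 1.2, 2.35 and 4.03 FPKM in PEG roots, against 6.13, 10.4 and 12.1 in control roots (-1.62 ± 0.28, adjusted p = 0.0035). Of the other lower phloem genes, 6 were also sieve element occlusion genes and 1 a phloem protein 2-like gene, all at 9.21 FPKM or less. The lower count of this list thus rests mostly on 1 gene family, and whether its members share reads was not tested. The higher one was sucrose transporter 4 (ncbi_8288074), named after its values were seen, with 77.1, 95.9 and 126 FPKM in PEG roots, against 50.6, 63.2 and 81.3 in control roots (0.92 ± 0.20, adjusted p = 0.00749). Summed FPKM did not separate the phloem genes. They took 137 to 157 FPKM in 3-day PEG roots and 152 to 197 FPKM in controls of that day, and 159 to 191 FPKM in 7-day PEG roots and 142 to 211 FPKM in controls of that day. Xylem genes took 139 to 245 FPKM in 3-day PEG roots and 188 to 427 FPKM in controls of that day, with overlap. At 7 days they took 127 to 176 FPKM in PEG roots and 225 to 306 FPKM in control roots, without overlap.

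**Figure D3:**
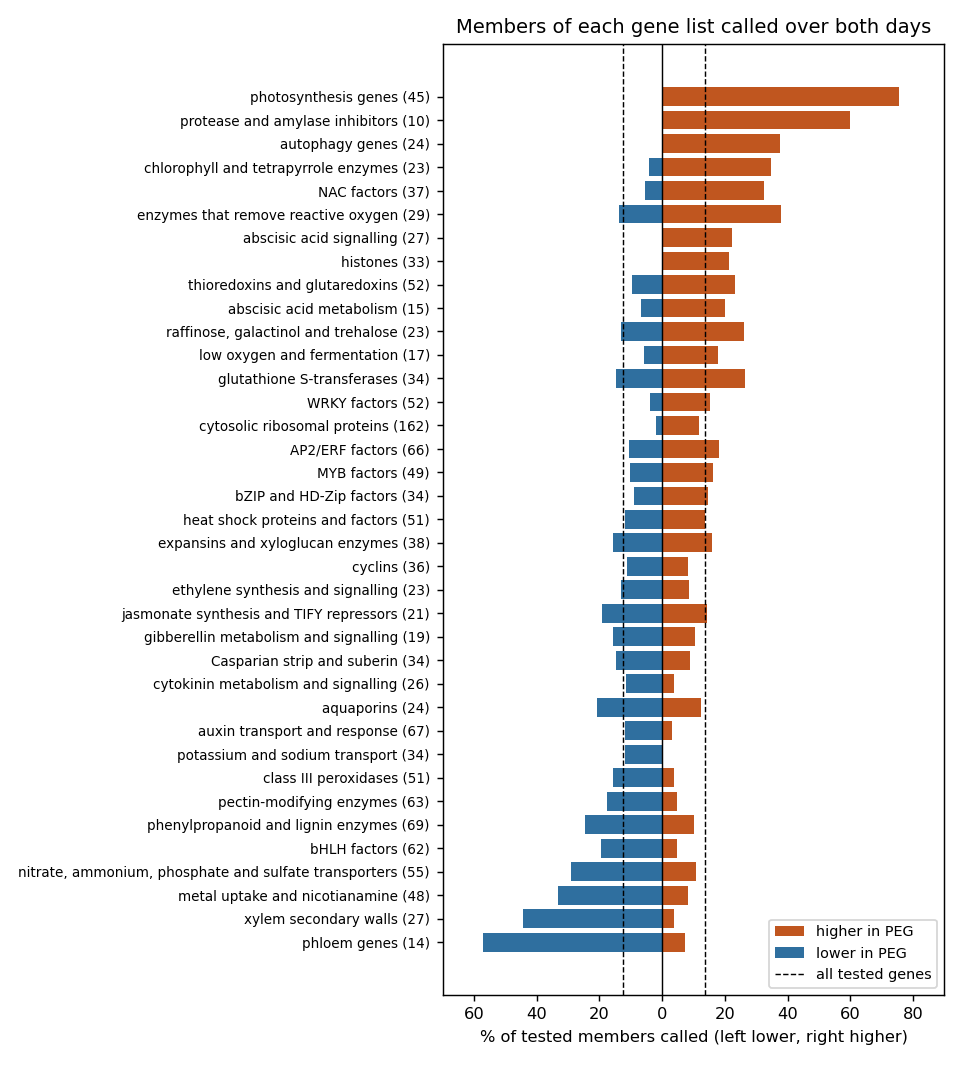
Percentage of the tested members of a gene list called lower (left) and higher (right) in PEG roots over both days, with the number tested in parentheses. The lists of LEA proteins, proline metabolism and root markers had few tested members and are not drawn. Dashed lines mark the shares over all tested genes, 12.5% lower and 13.5% higher. Photosynthesis genes reach furthest to the right, and phloem and xylem genes reach furthest to the left.

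Other hormone lists were small. Of 67 auxin genes 2 were higher and 8 lower (11.9% lower, against 12.5% over all genes). The efflux carriers 1c (ncbi_8283128) and 1b (ncbi_8269287), of the PIN family that moves auxin between cells, fell by 1.46 ± 0.35 and 1.43 ± 0.37. The first had 2.93, 12.2 and 29.3 FPKM in PEG roots and 37.8, 42.6 and 45.4 FPKM in control roots. Of 19 gibberellin genes 2 were higher and 3 lower (15.8% lower). The changed ones included opposite steps, with the catabolic gibberellin 2-beta-dioxygenase 2 (ncbi_8261301) higher by 1.79 ± 0.36 and the synthetic gibberellin 20 oxidase 1 (ncbi_8258329) lower (-2.21 ± 0.47). Of 21 jasmonate genes 3 were higher and 4 lower (19.0% lower), with a 13S-lipoxygenase (ncbi_8287572), an entry enzyme, falling by 2.94 ± 0.74. Of 26 cytokinin genes 1 was higher (3.85%) and 3 lower (11.5%). Of 23 ethylene genes 2 were higher (8.7%) and 3 lower (13.0%), against 13.5% and 12.5% over all genes.

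Of 36 genes with cyclin in the product name, which include a cyclin-D1-binding protein and a cyclin A-associated protein, 3 were higher and 4 lower. These are 8.33% and 11.1%, against 13.5% and 12.5% over all genes. Without 1 library 1 to 4 were higher and 2 to 8 lower, both lows without control replicate 1 of 3 days. Examples were the mitotic cyclin-B2-like gene (ncbi_8266071) at 26.6, 42.9 and 63.9 FPKM in PEG roots, against 9.43, 14.8 and 21.4 in control roots (1.90 ± 0.29, adjusted p = 0.00247, edgeR), and cyclin-D1-1-like (ncbi_8281928), which acts at the start of the cycle, at 1.26, 4.47 and 13.4 FPKM, against 17.1, 18.2 and 21.7 (-1.79 ± 0.38, adjusted p = 0.0074). Of 33 histones 7 were higher (21.2%) and 0 lower with TMM, while 2 were higher and 3 lower with library totals. Over all genes library totals gave 19.6% of calls higher. Summed over the listed histones, transcripts took 2407 to 2856 FPKM in 3-day PEG roots and 2205 to 2355 FPKM in controls of that day. At 7 days they took 2224 to 2664 FPKM in PEG roots and 1901 to 2134 FPKM in control roots, so the sums did not overlap on either day. Of 162 cytosolic ribosomal proteins 19 were higher and 3 lower (11.7% higher), with 7 higher and 10 lower under library totals and 8 higher and 11 lower once the length trend was removed. Without PEG replicate 3 of 3 days, 10 ribosomal genes were higher. Their median was 0.59 at 3 days, with 21 called higher, and 0.01 at 7 days, with 1 called higher. The labelled tissue was checked with a list of 10 root markers, 7 of them tested, of which 0 were higher and 4 lower (57.1%, against 12.5% over all genes). Of these, named after their values were seen, SHORT-ROOT (ncbi_8283369), which patterns the endodermis, had 9.31, 13.8 and 28.5 FPKM in PEG roots, against 28.3, 40.5 and 45.5 in control roots (-0.99 ± 0.21, adjusted p = 0.00812). SCARECROW (ncbi_8283041), its partner, had 2.34, 4.43 and 7.77 FPKM in PEG roots, against 5.19, 9.65 and 11.4 in control roots (-0.73 ± 0.21, adjusted p = 0.025). Listed relatives without a call were SCARECROW 1-like (ncbi_8266306, 0.75 ± 0.39) and SCARECROW-like (ncbi_8279702, -0.90 ± 0.72). A Casparian strip membrane protein gene (ncbi_8281830) stayed at or below 0.71 FPKM in all 12 libraries. Summed over the list, the markers took 807 to 1374 FPKM in 3-day PEG roots and 3151 to 4269 FPKM in controls of that day. At 7 days they took 3650 to 4640 FPKM in PEG roots and 3844 to 4518 FPKM in control roots, with overlap. Nitrate transport genes make up most of that sum.

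A further set, picked with values in view, is the 86 genes called over both days and on each day taken singly. It rests on the 7-day calls, of which 1 was left without control replicate 2 of 7 days. Of the 60 higher ones, 51 had all 6 PEG libraries above all 6 control libraries in FPKM, and all 26 lower ones had PEG below. Over all tested genes, 1.79% were separated with PEG above and 10.5% with PEG below. The choice of the 86 genes largely fixes their separation. The most abundant was an ARG2-like gene (ncbi_8259886), named for an auxin-induced transcript of mung bean, with 5771, 8551 and 11509 FPKM in PEG roots, against 2798, 3097 and 3734 in control roots (1.80 ± 0.22, adjusted p = 0.00113, edgeR). ATDI21 (ncbi_8278746), the relative of an Arabidopsis drought-induced transcript, had 1319, 2368 and 3523 FPKM in PEG roots, against 313, 554 and 961 in control roots (2.30 ± 0.34, adjusted p = 0.00198). A probable mannitol dehydrogenase (ncbi_8261810) had 48.5, 59.6 and 83.4 FPKM in PEG roots, against 1.37, 8.34 and 11.7 in control roots (3.40 ± 0.42). These 3 genes had no overlap between treatments. A flavanone 3-hydroxylase type gene (naringenin dioxygenase-like, ncbi_8270763), of flavonoid synthesis, rose by 3.55 ± 0.49, and the chloroplast sigma factor sigA (ncbi_8284285), which directs the plastid RNA polymerase, by 1.68 ± 0.21. Among the lower ones, serine hydroxymethyltransferase 4 (ncbi_8286891), of one-carbon metabolism, had 65.3, 118 and 177 FPKM in PEG roots, against 376, 432 and 736 in control roots (-1.63 ± 0.28, adjusted p = 0.00337). A COBRA-like gene (ncbi_8265063), of proteins that orient cellulose, had 32.9, 44.3 and 55.7 FPKM in PEG roots, against 108, 131 and 183 in control roots (-1.39 ± 0.19, adjusted p = 0.00163). An adenylylsulfate reductase (XLOC_010482), which commits sulfate to cysteine, had at most 0.56 FPKM in PEG roots and at least 1.72 FPKM in control roots (-3.10 ± 0.53, adjusted p = 0.00347).

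Over all calls, the separation of libraries depended on the unit. In FPKM, 442 of the 2124 higher genes (background 2.81%) and 1462 of the 1971 lower genes (background 14.6%) had no overlap between PEG and control within each day. In counts per library total scaled by TMM the numbers were 1111 (background 7.38%) and 960 (background 6.62%). The rule by which genes are named used FPKM and so met more decreases than increases, 1034 against 371.

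For 19 genes (0.121% of those tested) the PEG effect differed between the days by the interaction test of the same fit, 10 with a higher (0.0636%) and 9 with a lower (0.0573%) log2 change at 7 days than at 3 days. Without control replicate 3 of 3 days, 1 gene was called. Of these, 8 were also called over both days. The other 11 had opposite signs on the days and were not called over both days. A cinnamyl-alcohol dehydrogenase family gene (ncbi_8260964) had 257, 212 and 251 FPKM in 3-day PEG roots and 5.23, 6.17 and 7.29 FPKM in controls of that day. At 7 days it had 10.1, 9.86 and 18.3 FPKM in PEG roots and 44.2, 10.6 and 7.49 FPKM in control roots (difference -6.13 ± 0.79, adjusted p = 0.0182, edgeR). At 3 days the groups were far apart, and at 7 days they overlapped. At 3 days PEG libraries were likewise far above control libraries, and at 7 days they overlapped or lay below, for a calmodulin (ncbi_8258834, -4.79 ± 0.62), a calcium sensor, for a short-chain dehydrogenase (ncbi_8276521, -4.46 ± 0.49) and for a BTB/POZ and TAZ domain gene (ncbi_8278242, -4.08 ± 0.62). In the other direction, NRT2.1-like (ncbi_8275209) had 0.85, 0.22 and 0.17 FPKM in 3-day PEG roots and 32.7, 25.8 and 68.2 FPKM in controls of that day. At 7 days it had 28.3, 26.8 and 16.9 FPKM in PEG roots and 49.2, 71.6 and 84.6 FPKM in control roots (4.97 ± 0.76, adjusted p = 0.0364). An F-box gene (ncbi_8276207, 3.66 ± 0.47), a G-type lectin receptor kinase (ncbi_8272654, 4.41 ± 0.67) and a cytochrome P450 89A2-like gene (ncbi_8284293, 5.31 ± 0.88) were also far below control at 3 days. At 7 days the PEG libraries of the last 2 overlapped the control libraries, and those of the F-box gene lay just below.

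**Figure D4:**
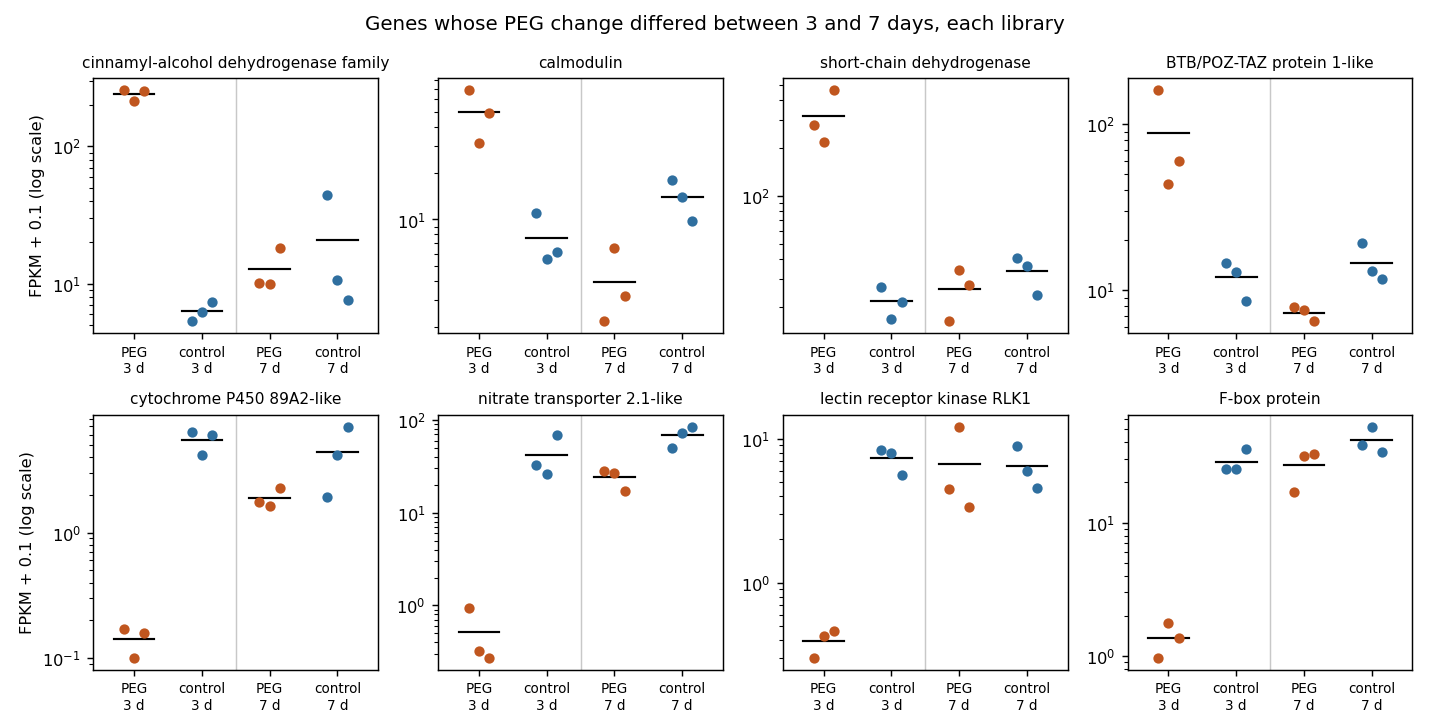
FPKM plus 0.1 on a log axis for the 8 named interaction genes in each library, PEG left of control at 3 and at 7 days, with black lines for group means. At 3 days the PEG libraries lie far above control for the genes with a negative difference and far below it for those with a positive one, and at 7 days the groups lie closer.

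After 4 days without PEG, few genes passed the test of rehydrated against control roots, in 3 libraries each. At 11 days, 2 of 16085 genes were called (0.0124%) between rehydrated and control roots, 1 higher (0.00622%) and 1 lower (0.00622%), by edgeR over all 18 libraries, and 1564 had an unadjusted p below 0.05. Of the 2121 PEG-raised genes tested there, 0 were called, and of the 1968 PEG-lowered genes 1 was called, a cytochrome P450 71A26-like gene (ncbi_8278263). Its FPKM was 1.4, 1.38 and 1.86 in 3-day PEG roots against 8.5, 8.2 and 7.42 in their controls. It was 3.56, 2.98 and 3.33 in 7-day PEG roots against 8.9, 6.16 and 7.4 in their controls. In rehydrated roots it was 7.62, 6.04 and 7.25, against 3.13, 1.55 and 1.7 in 11-day controls (1.67 ± 0.25, adjusted p = 0.0404). The 11-day controls were thus at the level of the PEG roots. The call was lost when any 1 of 5 of the 6 libraries of 11 days was left out. The other called gene, of the macrophage migration inhibitory factor family (ncbi_8263126), had 6.37, 6.74 and 6.01 FPKM in rehydrated roots and 19.8, 30.7 and 48.6 FPKM in controls (-2.49 ± 0.37, adjusted p = 0.0404), and was not called under PEG. The PEG-raised genes had a median log2 change of -0.19 at 11 days, with 35.9% above 0. The PEG-lowered genes had a median of 0.16, with 65.5% above 0, against 50.4% over all genes. The library medians of these sets overlapped between rehydrated and control roots. For the PEG-raised set, rehydrated libraries deviated from the gene means by -0.12, -0.27 and 0.11, and control libraries by -0.08, 0.15 and 0.24. Some of the strongest PEG transcripts had values on the PEG side at 11 days without a call. The cell division cycle protein-like gene (XLOC_016266) had 44, 28.3 and 49.7 FPKM in rehydrated roots, against 8.05, 8.5 and 7.44 in control roots (2.26 ± 0.51, adjusted p = 0.349). The zinc finger gene (ncbi_8269145) had 9.73, 5.15 and 9.7 FPKM in rehydrated roots, against 1.15, 2.45 and 0.772 in control roots (2.39 ± 0.94, adjusted p = 0.424). In both genes, picked with their 11-day values in view, the 3 rehydrated libraries stood above the 3 control libraries. The share of all genes separated at 11 days was not computed, for these genes or the lowered ones that follow. Some lowered genes, also named after their values were seen, stayed on the low side without a call. Nicotianamine synthase-like ncbi_8279286 had 0.88, 0.74 and 2.38 FPKM in rehydrated roots, against 3.46, 20.1 and 3.11 in control roots (-2.80 ± 1.08, adjusted p = 0.411). NRT2.1-like ncbi_8275209 had 6.31, 11.2 and 4.29 FPKM in rehydrated roots, against 21.8, 12.1 and 23.5 in control roots (-1.45 ± 0.49, adjusted p = 0.376). Neither overlapped between the groups, and the synthase ncbi_8261713, with a log2 change of -2.99 ± 1.09 (adjusted p = 0.399), did. The photosynthesis list had no member called at 11 days and a median log2 change of 0.06.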

How the data were processed

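Per the labels' protocols, whole root systems gave RNA by Trizol extraction, and an mRNA kit made the libraries. The aligner and counter were not given in the sources used here, nor were the strand setting and build. The authors deposited 2 columns per library. The deposited expected counts (at least 98.3% of values whole in each of the 12 libraries) were rounded and tested, and the authors' FPKM, per the file headers, served for levels. Of 36 per-sample columns, 3 FPKM columns of the 11-day controls were not used, because titles and descriptions point to different columns. FPKM of that group was computed from counts, totals and gene lengths implied by the other columns. Of 20538 NCBI gene numbers, 18929 were found in a RefSeq table.

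Genes were filtered with filterByExpr (minimum count 10, minimum total 15), scaled by TMM and fitted by edgeR 4.0.16 in R 4.3.3 (quasi-likelihood, robust dispersion) with terms for day and PEG in 12 libraries. A fit of 1 mean per day and treatment gave each day and the interaction, and a fit of all 18 libraries gave 11 days. The Benjamini-Hochberg adjustment ran over all tested genes, with a threshold of 0.05. The standard error is the absolute log2 change over the square root of F. The common biological coefficient of variation was 0.405. Alternatives were DESeq2 1.42.0, its size factors, library totals, no filter, no day term, limma 3.58.1 on log2 of the deposited FPKM (offset 1 or 0.1, with a filter at 1 FPKM in 3 libraries or none), removal of the length trend (lowess span 0.3), a threshold of 0.01, the replicate block and leaving out libraries. Scripts were tested on simulated data.

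Named genes were those called over both days, with a described product, a mean FPKM of at least 5 in PEG or control libraries and no overlap of FPKM within each day in the same direction. Of these, the 12 largest increases and 12 largest decreases and up to 2 of each per list were taken, and 4 of each direction for the interaction. The members and gene lists were chosen by product name with earlier results of these data known. No sequence was used.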

Additional observations from a re-analysis of the deposited data

Results flagged for a closer look

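For 19 genes the effect of PEG differed between 7 and 3 days by the test of the difference itself. The test was edgeR's interaction of PEG and day, at an adjusted p below 0.05. Without control replicate 3 of 3 days, 1 gene was called. The 8 genes given here have the 4 largest differences in each direction. The log2 difference, 7 days minus 3 days, was -6.13 for a cinnamyl-alcohol dehydrogenase family gene (ncbi_8260964), -4.79 for a calmodulin (ncbi_8258834), -4.46 for a short-chain dehydrogenase (ncbi_8276521) and -4.08 for a BTB/POZ and TAZ domain gene (ncbi_8278242). The calmodulin had 69, 31.4 and 49.3 FPKM in 3-day PEG roots and 10.9, 5.41 and 6.09 FPKM in controls of that day. At 7 days it had 2.08, 6.4 and 3.09 FPKM in PEG roots and 17.9, 13.9 and 9.68 FPKM in control roots. Its PEG libraries thus lay above the controls at 3 days and below them at 7 days, although the 7-day change was not called (adjusted p = 0.0937).

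The difference was 3.66 for an F-box gene (ncbi_8276207), 4.41 for a G-type lectin receptor kinase (ncbi_8272654), 4.97 for an NRT2.1-like nitrate transporter (ncbi_8275209) and 5.31 for a cytochrome P450 89A2-like gene (ncbi_8284293). The F-box gene had 0.86, 1.67 and 1.25 FPKM in 3-day PEG roots and 25.3, 25.2 and 35.3 FPKM in controls of that day. At 7 days it had 16.9, 31.6 and 32.6 FPKM in PEG roots and 38.2, 52.4 and 34 FPKM in control roots. The cytochrome gene had 0.07, 0 and 0.06 FPKM in 3-day PEG roots and 6.26, 4.06 and 5.89 FPKM in controls of that day.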

How the results depend on the processing

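Over both days the number of genes called was 4095, and 2491 (without PEG replicate 3 of 3 days) to 4454 when single libraries were left out, with 1386 to 2334 higher and 1064 to 2232 lower. It was 5319 with DESeq2, 3652 with the length trend removed, 4420 (2389 higher) without control replicate 2 of 3 days and PEG replicate 2 of 7 days, a setting chosen after seeing the data, and 1209 (733 higher, 476 lower) at an adjusted p below 0.01. Higher and lower calls were 1104 and 4518 with library totals, 1249 and 4550 with limma on log2(FPKM + 1), 1219 and 4488 with an offset of 0.1, and 1211 and 4614 without its filter. Of the 4095 genes, 3075 were also called with library totals, all in the same direction.

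At 3 days 781 genes (385 higher, 396 lower) were called at 0.01. Library totals gave 764 higher and 3634 lower, and limma 820 and 3452. Leaving out single libraries gave 1358 to 3032 calls, 609 to 1582 higher and 740 to 1495 lower. At 7 days DESeq2 called 1272 genes (830 higher, 442 lower), limma 287 (182 lower) and the 0.01 threshold 2 (1 higher, 1 lower). Library totals gave 42 higher and 64 lower. Single libraries left out gave 1 (without control replicate 2 of 7 days) to 211 calls, 0 to 152 higher and 1 to 60 lower, and both doubted libraries left out gave 254 (201 higher). For the interaction, DESeq2 called 234 genes (123 higher, 111 lower), limma 6 higher, the 0.01 threshold 2 (0 higher, 2 lower), the fit without both doubted libraries 1 (0 higher, 1 lower), and single libraries left out 1 (without control replicate 3 of 3 days) to 18, 0 to 6 higher and 1 to 12 lower. The call at 11 days among PEG genes was 1, 0 with library totals or with the 6 libraries of that day alone, and 0 to 2 when single libraries were left out. The causes were not tested.

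Whether replicate numbers pair the libraries was not settled. Deviations of same-numbered PEG and control libraries correlated at 0.63, 0.51 and 0.08 at 3 days and 0.04, 0.51 and -0.24 at 7 days. Some libraries correlated best with their own number and others did not. With the replicate block 5008 genes were called over both days, 1549 at 7 days (864 higher, 685 lower) and 42 for the interaction (21 higher, 21 lower). Of 98 genes named for PEG, 82 stayed called without any 1 library, and 16 lost the call without at least 1. No named gene changed direction in these alternatives. The balance of higher and lower calls did turn, at 7 days to 105 higher and 182 lower with limma, and with library totals as given above, as did some list medians and counts. Depth limits low transcripts most, and counting intervals were not computed.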
